A study of Caenorhabditis elegans with 4 samples.

Results

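Closely spaced NHR-11 regions are stretches of the Caenorhabditis elegans genome that were called as bound by NHR-11 in both replicates and that had another such region within 2000 bp on the same chromosome. Merging peaks that had 1 bp or more in common between the replicates gave 1212 shared regions on chromosomes I to V and X, in WormBase WS220 coordinates, and the gap was counted from the end of one region to the start of the next. Of these, 232 had a gap of at most 2000 bp (19.1%, exact 95% interval 17.0 to 21.5%), and the 980 others lay farther from their nearest neighbour. The regions were chosen by the gap between the deposited peak positions, so their number and spacing are descriptions and were not tested. Intervals on shares are exact (Clopper-Pearson), cover counting error over regions only, and treat neighbouring regions as independent, which they are not.

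NHR-11 is one of the nuclear hormone receptors, transcription factors that carry a zinc-finger domain for binding DNA and, in most members, a domain for binding small lipophilic ligands. This family is greatly expanded in C. elegans, and most of its members there have no known ligand. Transcription factors bind promoters and enhancers, and several bound stretches can lie close together at one gene or between neighbouring genes, which stand close to each other in the worm genome.

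The material was third-larval-stage (L3) hermaphrodites of strain OP305, grown at 20 °C and treated with 2% formaldehyde for all libraries. The strain holds the unc119(ed3) mutation and the transgene wgIs305, made by bombardment with a construct that carries nhr-11 joined to TY1, EGFP and FLAG tags and unc119. The listed genotype leaves the worms' own nhr-11 unaltered, so the tagged receptor came in addition to it. There were 2 ChIP libraries, precipitated with antibodies to GFP, and 2 input libraries of the same strain and stage, which had no peak list of their own and were not analysed here. Peaks were listed by the authors for replicate 1, for replicate 2 and for the whole series, with a start, an end and 1 significance value for each peak (the lowest is the strongest). These values are given below as deposited or as −log10. The labels do not tell whether separate worm cultures gave the replicates. The lists hold no read counts, so the depth behind a peak is unknown. With lists for 2 ChIP samples and for no input or second condition, no test over samples was possible, and the comparisons below are descriptions in each replicate list.

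The 232 regions fell into 101 groups, taking as a group all regions linked by gaps of at most 2000 bp. Most groups were pairs: 80 groups held 2 regions, 15 held 3, 3 held 4 and 3 held 5. A close neighbour on both sides was found for 30 regions. A group ran over a median of 2261 bp from its first to its last base (725 to 16546 bp), and regions covered a median of 54.4% of that length (20.8 to 96.7%). The 131 gaps inside groups had a median of 744 bp, with an interquartile range of 400 to 1296.5 bp. Only 4 gaps were of 200 bp or less, 34 were over 200 and up to 500 bp, 46 were up to 1000 bp, 22 up to 1500 bp and 25 up to 2000 bp. Within each deposited list on its own, consecutive peaks were never closer than 205 bp in replicate 1, 203 bp in replicate 2 and 201 bp in the series list. Shorter gaps between merged regions arose because a merged region takes the outermost edges of both replicates.

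**Figure D1:**
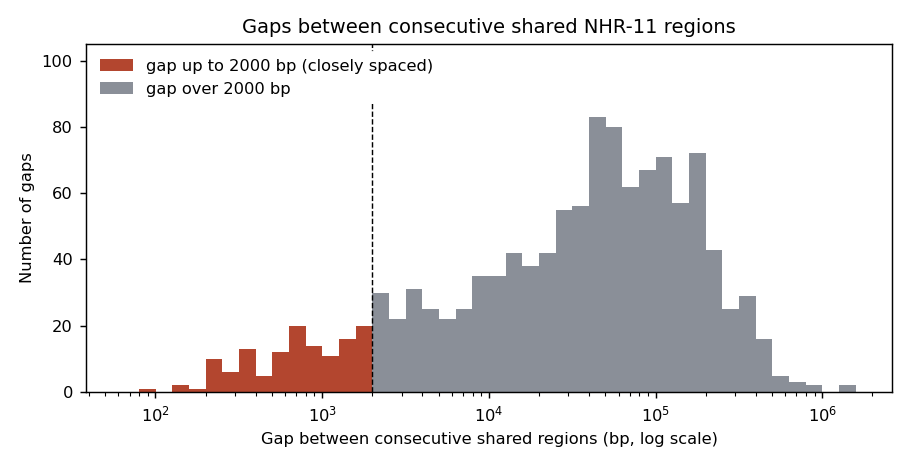
Number of gaps (y axis) by length in bp (x axis, log scale) between consecutive shared regions of the same chromosome, with gaps of up to 2000 bp in red and longer ones in grey. The 131 red gaps form the lower tail of 1206 gaps whose median was 41371.5 bp, and the counts show no break at the dashed line at 2000 bp.

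The limit of 2000 bp did not fall at a break in the distribution. Gaps over 1000 and up to 2000 bp numbered 47, and gaps over 2000 and up to 3000 bp numbered 45. Just inside the limit were a pair of chromosome IV regions with a gap of 1925 bp, at 5604393 to 5605380 and at 5607306 to 5607663, and a pair of chromosome I regions with a gap of 1948 bp, at 5377620 to 5377889 and at 5379838 to 5380080. The widest gap of a member was 1949 bp, for the chromosome X region at 4139760 to 4140136. Just outside were the chromosome X regions at 15606729 to 15607924 and at 15609954 to 15610804, which were 2029 bp apart. Next came the chromosome II region at 5340770 to 5341025, with a gap of 2036 bp. The chromosome II regions at 8741916 to 8742473 and at 8744512 to 8745186 were 2038 bp apart. Regions on either side of the limit held both strong and weak peaks. The region on X at 15606729 had values of 4.36e-16 in replicate 1 and 1.43e-18 in replicate 2, whereas that on I at 5377620 had 0.000249 and 0.000626. At a gap limit of 1000 bp 150 regions remained within it, and at 5000 bp 411 did.

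Closely spaced regions were wider than the others in both replicates. The median width was 435 bp for closely spaced regions and 319 bp for other regions in replicate 1, a ratio of 1.36. In replicate 2 it was 452.5 bp for closely spaced regions and 330 bp for other regions, a ratio of 1.37. The merged regions had medians of 507 bp (interquartile range 357.8 to 855.5 bp) for closely spaced and 364 bp (280 to 496 bp) for other regions. Width thus differed by far more between the classes than between the replicates, although the interquartile ranges overlapped. The contrast was strongest among very wide regions. Of closely spaced regions, 40 of 232 were wider than 1000 bp (17.2%, 12.6 to 22.7%), against 27 of 980 others (2.76%, 1.82 to 3.98%). Put the other way, 40 of the 67 regions wider than 1000 bp were closely spaced (59.7%, 47.0 to 71.5%), where the share over all shared regions was 19.1%. Of the 7 regions wider than 3000 bp, 5 were closely spaced.

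Width enters the rule, because a gap counted between edges is shorter when the regions are wide. With the distance counted between midpoints instead, 180 regions had a neighbour within 2000 bp (14.9% of all). They were still wider than the rest, at a ratio of median widths of 1.29, and 44.8% of the regions wider than 1000 bp were among them. Regions whose gap was at most 500 bp were the widest, with a median of 703 bp (n = 74). The median was 442 bp at gaps over 500 and up to 1000 bp (n = 76), and 464.5 bp at gaps over 1000 and up to 2000 bp (n = 82). It was 373 bp among regions whose nearest neighbour was over 2000 and up to 10000 bp away (n = 290), and 360 bp beyond that (n = 690). Regions in groups of 3 or more had a median width of 631.5 bp (n = 72), and those in pairs 474 bp (n = 160).

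Closely spaced regions also had stronger significance values in both replicates. In replicate 1 the median −log10 value was 7.03 for closely spaced and 5.38 for other regions, a difference of 1.66. In replicate 2 it was 7.08 for closely spaced and 5.35 for other regions, a difference of 1.73. On the deposited scale the medians were 9.34e-08 and 8.46e-08 for closely spaced regions in replicates 1 and 2, against 4.21e-06 and 4.48e-06 for other regions. The ranges of the classes overlapped almost wholly, since each reached down to the limit of the lists near 0.001. Among the first 303 shared regions by summed rank, which are 25.0% of all, 84 were closely spaced (27.7%, 22.8 to 33.1%), and among the last 303 there were 39 (12.9%, 9.32 to 17.2%), against 19.1% over all regions. Of the first 100 regions, 37 were closely spaced (37.0%, 27.6 to 47.2%). With distances counted between midpoints, 18.8% of the first 303 were closely spaced, against 14.9% over all regions, and the difference in medians was 1.14. The difference was 0.780 with a gap limit of 5000 bp. In peak lists of single replicates, which also hold peaks called in 1 replicate only, it was 0.587 without replicate 2 and 0.795 without replicate 1.

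**Figure D2:**
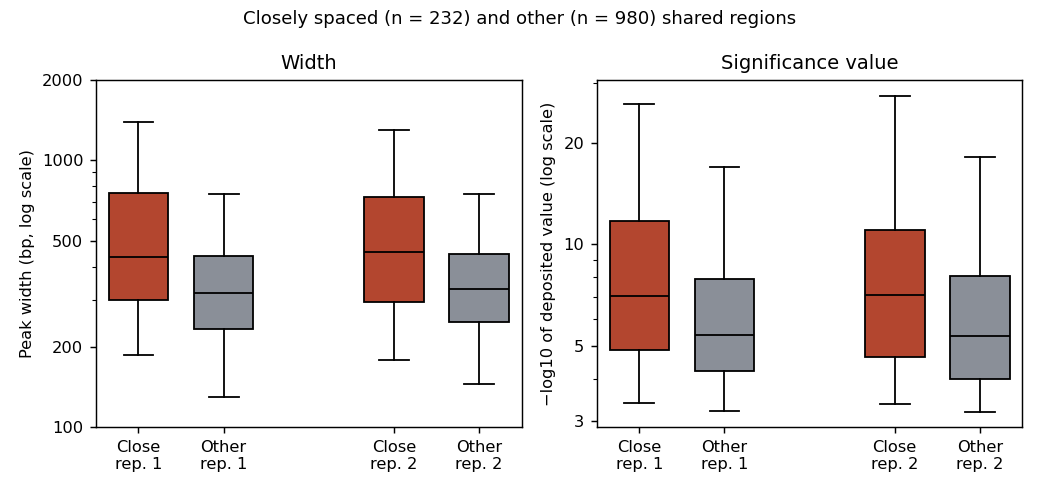
Width in bp (left) and −log10 of the deposited significance value (right), both on log scales, in replicates 1 and 2. Closely spaced shared regions are red and other shared regions grey. Width runs from the first to the last base of a replicate's peaks in a region. Boxes are medians and quartiles over regions and whiskers the 5th and 95th percentiles. In each replicate the red medians (435 and 452.5 bp; 7.03 and 7.08) lie above the grey ones (319 and 330 bp; 5.38 and 5.35), and the boxes overlap.

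Strength and width are related to each other, so the classes were also compared within parts of the range of strength. Regions were split into 4 equal parts by their mean −log10 value, and closely spaced regions made up 11.6%, 14.9%, 21.5% and 28.7% of these parts, going from the weakest to the strongest. Among the strongest 303 regions, the median width was 847 bp for closely spaced and 496.5 bp for other regions. Strength was not alike in that part, with median −log10 values of 14.1 for closely spaced and 11.9 for other regions. Among the weakest 303, the median width was 343 bp for closely spaced and 311 bp for other regions. Their median −log10 values were 3.83 and 3.84. The difference in width was thus present in each part and was widest among strong regions, where strength also differed. When regions were split by width instead, the widest 303 held 35.0% closely spaced regions. The closely spaced ones among them had a median −log10 value of 10.1, against 8.29 for the others. They were also wider, with a median of 883 bp against 691 bp. Among the narrowest 303 regions, both classes had a median width of 238 bp. Their median −log10 values were 4.37 for closely spaced and 4.49 for other regions, so closely spaced regions were not stronger there. In the parts between, the classes were close in width, and closely spaced regions had the higher values. In the next wider part, median widths were 339.5 and 333 bp for closely spaced and other regions, and values 5.80 and 5.46. In the part after that, widths were 444 and 441.5 bp, and values 6.38 and 5.64.

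The strongest closely spaced regions lay on chromosome IV. The region at 9067487 to 9078958 (11472 bp) ranked at place 1 in both replicates, with values of 3.10e-130 and 9.04e-81. Its neighbour at 9062413 to 9066048 (3636 bp), 1438 bp away, ranked at places 3 and 6, with values of 7.73e-76 and 4.56e-56. The transgene carries nhr-11 itself, and whether these regions lie at that gene was not tested, since no annotation of the files' genome build was used. Leaving out chromosome IV from 9 to 10 Mb removed only these 2 closely spaced regions and left a ratio of median widths of 1.37 and a difference in −log10 value of 1.60. On chromosome V, the regions at 6221098 to 6225834 (4737 bp) and at 6226148 to 6229938 (3791 bp) stood 313 bp apart. Their values were 5.19e-36 and 1.01e-30 for the left region in replicates 1 and 2, and 9.89e-27 and 1.45e-31 for the right one, so both were strong in both replicates.

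In the other pairs among the 10 strongest members, the neighbour was weaker, by differing amounts. The 10 were picked by smallest summed rank, and these neighbours were not among them. Their larger summed rank was thus fixed by the choice, and only the size of the difference is described. On chromosome I, the neighbour of the region at 7079195 to 7081367 (2.43e-40 and 1.02e-38) was itself strong, with 6.61e-34 and 6.19e-15. On chromosome III, the region at 4281627 to 4282667 had values of 1.74e-45 and 1.36e-37, and its neighbour at 4283072 to 4283510, 404 bp away, had 1.30e-11 and 3.45e-09. On chromosome I, the region at 9380938 to 9382029 had 9.23e-42 and 5.16e-37, and its neighbour at 9382800 to 9383334 had 1.67e-05 and 2.22e-06. On chromosome II, the region at 8561092 to 8561555 had 1.12e-33 and 8.71e-32, and its neighbour at 8558900 to 8559449 had 4.28e-06 and 0.000151. In these pairs on III, I (at 9380938) and II the weaker region was many orders of magnitude less significant in both replicates. The smallest gap of all, 85 bp, separated the chromosome X regions at 16929358 to 16930439 and at 16930525 to 16931970. The left one had values of 1.90e-39 and 1.10e-38, and the right one 6.69e-17 and 7.82e-14. The chromosome II regions at 9600718 to 9602126 and at 9602474 to 9603796, 347 bp apart, had 2.25e-14 and 8.04e-11 on the left and 3.75e-33 and 2.51e-41 on the right.

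The order of strength within a pair of neighbours was mostly the same in both replicates. The rule did not use this order. Of the 131 neighbouring pairs, 107 had the same stronger region in both replicates (81.7%, 74.0 to 87.9%), and 106 had the same wider one (80.9%, 73.1 to 87.3%). Such shares were not computed for pairs of regions farther apart, so whether they are particular to close neighbours was not tested. The regions of a pair differed by a median of 3.92 in −log10 value in replicate 1 and 3.75 in replicate 2. The pairs were also split by these same differences. Where the regions differed by over 2 in both replicates, 71 of 72 pairs kept their order (98.6%, 92.5 to 100.0%), and in the remaining pairs 36 of 59 did (61.0%, 47.4 to 73.5%). The single exception was the chromosome I pair at 14945128 to 14946066 and 14947984 to 14948802, chosen after its values were seen. Its left region had −log10 values of 9.69 in replicate 1 and 4.89 in replicate 2, and its right region 6.68 and 7.68.

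**Figure D3:**
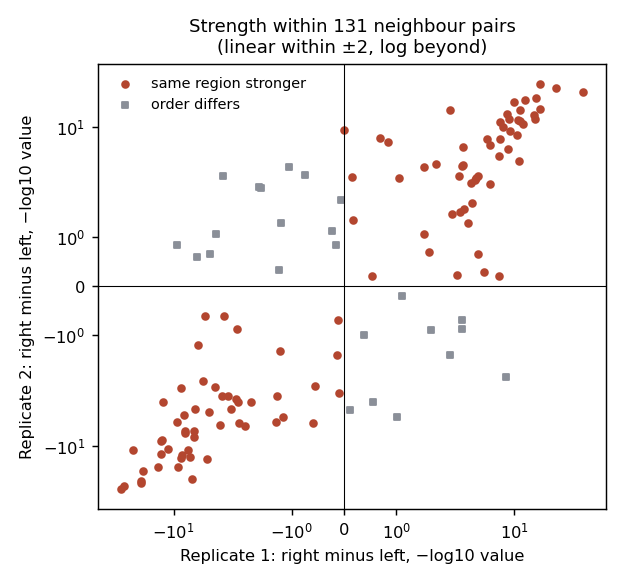
Difference in −log10 value between the right and the left region of each of the 131 neighbouring pairs, in replicate 1 (x axis) and replicate 2 (y axis), linear within 2 of 0 and logarithmic beyond. Red points (107 pairs) have the same stronger region in both replicates and grey squares (24 pairs) do not; most grey squares are small in at least 1 replicate.

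Neighbours were more alike in width than in strength. Width here is that of the merged regions, and it enters the rule through the gap. Across the 131 pairs, Spearman's rho between the left and right region was 0.431 for width. For −log10 values it was 0.0651 in replicate 1 and −0.0213 in replicate 2. Across the 189 consecutive regions with gaps over 2000 and up to 10000 bp, rho for width was 0.160, and across 886 with longer gaps it was 0.103. For −log10 values at these distances, rho was 0.132 in replicate 1 and 0.0586 in replicate 2 for gaps of up to 10000 bp, and −0.0256 and 0.0453 for longer ones, so width and strength were closer to each other there than in the close pairs. A region can enter 2 pairs and the members of a pair share their libraries, so these values describe the lists. In the 21 groups of 3 or more regions, the strongest region was at an end of the group in 12 and inside it in 9, while 42 of their 72 regions were end regions.

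Likeness of spacing between the replicates is partly built in, since peaks had to overlap between the lists to form a region, so the following values only describe the peaks that met the rule. From midpoint to midpoint, neighbours were a median of 1409 bp apart in replicate 1 and 1455 bp in replicate 2. For a given pair the spacing differed between replicates by a median of 53.5 bp (interquartile range 20.5 to 137 bp), and by at most 100 bp in 84 pairs (64.1%). The edges of closely spaced regions differed between replicates by medians of 44.0 bp at the start and 37.0 bp at the end, against 32.0 and 34.0 bp for other regions. The part of a region covered by both replicates had a median of 78.8% for closely spaced and 79.7% for other regions. Across regions, rho between the replicates' values was 0.799 for closely spaced (n = 232) and 0.688 for other regions (n = 980), and that between widths was 0.878 and 0.821. The spread of values moved with this: the interquartile range of −log10 values in replicate 1 was 4.86 to 11.7 for closely spaced and 4.22 to 7.92 for other regions. Its part in the higher rho was not tested.

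Groups of 5 regions, the largest number found, were present at 3 places. The chromosome X group at 12200351 to 12207602 (7252 bp) had a strong region at its left end, at 12200351 to 12200982, which had 5.35e-26 and 6.33e-28 in replicates 1 and 2. Its next region, starting at 12201381, had 0.000118 and 1.30e-08. That starting at 12203723 had 1.13e-05 and 0.000673. The region starting at 12205087 had 0.000199 and 0.000319, and the last, starting at 12206496, had 4.02e-05 and 1.05e-11. Only the left region was thus strong in both replicates, and the second and last regions were much stronger in replicate 2. As merged regions, these 4 weaker regions were 855 to 1107 bp wide, against 632 bp for the strong one. In replicate 2 they were 714 to 1107 bp wide, against 596 bp. In replicate 1 those starting at 12201381 and 12205087 were narrower than the strong one, at 424 and 176 bp against 610 bp. Those starting at 12203723 and 12206496 were 917 and 939 bp wide there, the latter as a span over separate peaks.

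The chromosome III group at 1920974 to 1926783 (5810 bp) had strong regions in places 1 and 4 from the left. The region at 1920974 to 1921858 had values of 6.10e-12 and 2.06e-15, and that at 1924859 to 1925715 had 9.74e-14 and 2.86e-19. The others, starting at 1922437, 1923305 and 1926153, had values between 1.22e-06 and 7.01e-05 in replicate 1 and between 5.59e-08 and 0.000311 in replicate 2. Both replicates therefore ranked these strong regions above the rest. In the other chromosome X group, at 13350885 to 13359024 (8140 bp), the 5 regions were more even. Their values ran from 4.12e-07 to 5.07e-14 in replicate 1 and from 4.66e-09 to 6.23e-16 in replicate 2, and their widths from 411 to 665 bp. Regions covered 35.5% of this group, against 63.3% of the chromosome X group at 12200351 and 58.9% of the chromosome III group.

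**Figure D4:**
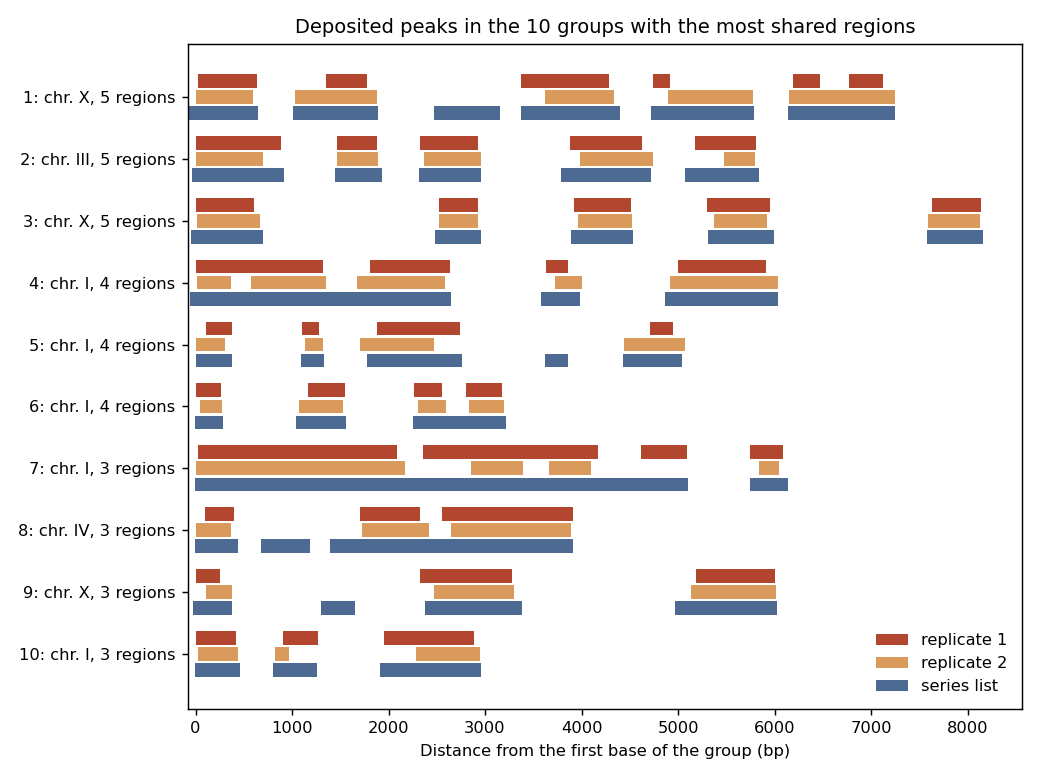
Deposited peaks of replicate 1 (red), replicate 2 (orange) and the series list (blue) in the 10 groups with the most regions (from 5 regions at the top to 3 at the bottom), by distance in bp from the first base of the group. Replicate peaks overlap here because overlap made them shared regions; in groups 4, 6, 7 and 8 a single series peak spans 2 regions that the replicate lists keep apart.

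Groups of 4 regions were all on chromosome I. The group at 5310966 to 5316997 held regions of unequal strength. Its regions starting at 5312636 and at 5315882 were strong in both replicates, with values of 1.73e-18 and 1.56e-21, and of 6.35e-14 and 5.23e-23. Its first region, 1352 bp wide, had 2.03e-16 in replicate 1 and 3.26e-06 in replicate 2, while the third, starting at 5314594, had 0.000709 and 0.000547. In the group at 9095526 to 9100598 the region at 9097227 to 9098267 was the strongest in both replicates (8.51e-17 and 3.81e-16). In the group at 6434512 to 6437711 the strongest values were 9.27e-09 in replicate 1 and 6.82e-08 in replicate 2, so none of its regions was among the strongest of the lists. Of the groups of 3, the one with the strongest region was on chromosome I at 7079195 to 7085281. Its first region was 2173 bp wide and its second 1817 bp, both with the values given above. The other named groups of 3 were on chromosome IV at 14610826 to 14614733, with its strongest region starting at 14613381 (2.79e-27 and 1.33e-29), on chromosome X at 4139760 to 4145774, and on chromosome I at 10767132 to 10770083. In the X group the regions starting at 4142086 (8.46e-21 and 2.43e-17) and at 4144894 (3.20e-19 and 2.36e-19) were almost equal in strength. In the chromosome I group the rightmost region, starting at 10769090, was the strongest (2.40e-15 and 1.98e-17).

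Neighbours were listed as separate peaks in almost every list. No pair was joined by a single peak of replicate 1 or of replicate 2, which the merging of overlapping peaks excludes by its construction. In the series list, 1 peak spanned 10 of the 131 gaps (7.63%, 3.72 to 13.6%). All 10 were among the 38 gaps of up to 500 bp, the longest being the 318 bp between the chromosome I regions at 5310966 and 5312636. Among them were also the gap of 85 bp on chromosome X and that of 181 bp between the chromosome I regions at 7079195 and 7081549. A further series peak lay wholly inside 15 of the gaps (11.5%), a peak of replicate 1 alone inside 2 (1.53%), and a peak of replicate 2 alone inside 3 (2.29%). In the series list the strongest peak over a closely spaced region had a median −log10 value of 20.1 and the widest a median width of 621.5 bp, against 13.8 and 399 bp over other regions. A series peak that spanned a gap counted for both regions beside it, at its full width. The part of such peaks in these medians was not tested. No further ChIP library is part of the series, and its list is therefore no independent measurement.

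Peaks called in 1 replicate alone did not enter the rule except by their absence. A peak of replicate 1 alone lay within 2000 bp of 30 closely spaced regions (12.9%, 8.90 to 17.9%) and of 84 other regions (8.57%, 6.89 to 10.5%), where the share over all shared regions was 9.41%. A peak of replicate 2 alone lay within 2000 bp of 16 closely spaced regions (6.90%) and of 75 other regions (7.65%), with 7.51% over all. The classes therefore differed in opposite directions in the replicates, and the intervals overlapped in both. Farther out, 45 of the 101 groups had another shared region within 10000 bp of the group (44.6%, 34.7 to 54.8%), as did 290 of the 980 other regions (29.6%, 26.7 to 32.6%). A group is longer than a single region, and the part of that in the difference was not tested.

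Chromosome I held the most closely spaced regions. It had 75 of the 232 (32.3%), in 31 groups, and 24.8% of its own shared regions were closely spaced (20.1 to 30.1%), against 19.1% over all chromosomes. The shares were 15.9% on II (27 regions), 16.5% on III (30), 19.4% on IV (38), 14.3% on V (22) and 19.2% on X (40). The intervals of all chromosomes overlapped, from 9.17 to 20.8% on V to that of I. With distances counted between midpoints the share was 20.2% on I and 7.14% on V, and with a gap limit of 1000 bp it was 17.2% on I and 7.14% on V. Density moved with these shares at both ends of the order: shared regions were densest on I, at 20.0 per Mb, and sparsest on V, at 7.36 per Mb. The part of density in the shares was not tested. Closely spaced regions were wider than other regions on every chromosome, with medians from 423 bp on IV to 695.5 bp on X, against 345 bp on I to 434 bp on X for other regions. Median −log10 values were also higher for closely spaced regions on every chromosome in both replicates. On V the difference was small in replicate 1 (5.40 against 5.23) and larger in replicate 2 (7.43 against 5.44).

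Along the chromosomes, closely spaced regions were spread much as the other shared regions were. Each chromosome was cut into 3 equal parts, left, middle and right, in the direction of the coordinates. The middle parts together held 93 closely spaced regions (40.1%, 33.7 to 46.7%) and 427 other regions (43.6%, 40.4 to 46.7%). Of the shared regions, 19.7% were closely spaced in the left parts, 17.9% in the middle and 20.4% in the right. Single chromosomes departed from this evenness. On chromosome X only 3 of 65 shared regions of the left part were closely spaced (4.62%, 0.962 to 12.9%), against 22 of 77 in the right part (28.6%, 18.8 to 40.0%). Chromosome V had the opposite order, with 14 of 51 in the left part (27.5%, 15.9 to 41.7%) and 0 of 30 in the right (upper bound 11.6%). On chromosome II the left part had 0 of 23 (upper bound 14.8%). On chromosome III the middle part had 4 of 74 (5.41%, 1.49 to 13.3%), between 13 of 49 in the left part (26.5%) and 13 of 59 in the right (22.0%). These 18 parts were not tested, and regions of 1 group always fall together, so the intervals are too narrow.

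**Figure D5:**
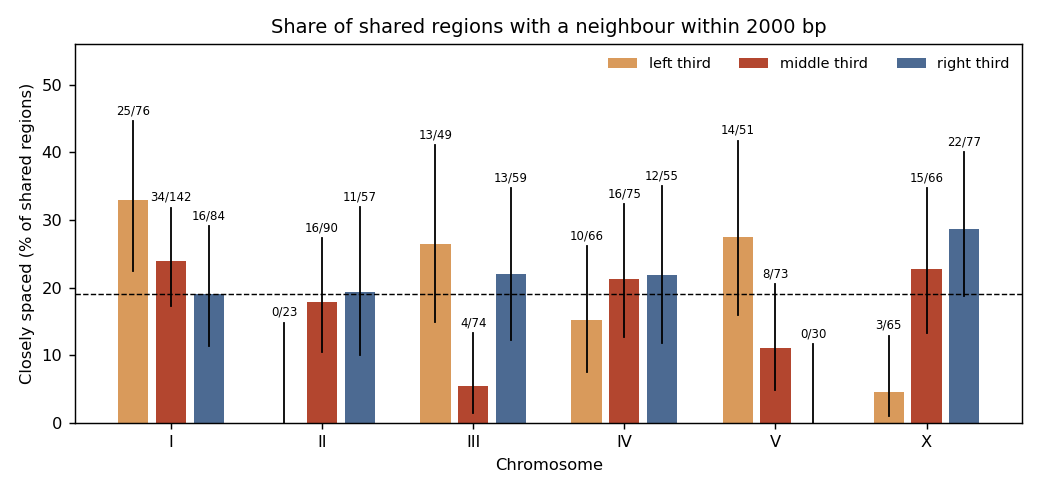
Percent of the shared regions in the left, middle and right part of each chromosome that are closely spaced, with exact 95% intervals as lines and counts above them; the dashed line is the 19.1% over all shared regions. The bars run from 0% (II left, V right) to 32.9% (I left, 25 of 76 regions).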

How the data were processed

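ChIP-seq peak lists of 2 ChIP replicates and of the whole series were used. The genome build is WormBase WS220 and the caller PeakSeq, per the file headers and the lists' source column. Each peak has 1 deposited significance value (a p-value or q-value, which is not stated) below 0.001. Details of the aligner, control, threshold and series list were not given in the sources used here. Each peak's deposited start and end gave its width; no score or read count accompanies them.

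From these lists, shared regions, gaps (in bases between region ends), groups chained at 2000 bp and −log10 values were computed with Python 3.11.15, numpy 2.4.6, pandas 2.3.3, scipy 1.17.1 and matplotlib 3.10.9. Where a region held several peaks of a list, the strongest gave its value, and its width in that list ran from the first to the last base of these peaks. This was so for 3 and 5 of 232 closely spaced regions in replicates 1 and 2, and for 0 and 2 of 980 other regions. The highest coordinate listed stood for a chromosome's length. On simulated lists the procedure found the planted close and lone regions. Those lists were simpler than the deposited ones, with peaks of equal width and nearly equal position in both replicates. They check the code and say nothing on the deposited regions. Gap limit, overlap, significance limit, width minimum, midpoint distances, joining of near regions, leaving out each replicate and leaving out chromosome IV from 9 to 10 Mb were varied.

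Named were the 10 groups with the most regions (ties by best summed rank), the 10 members of smallest summed rank, and those at the smallest gap and at the limit. The members, lists and alternatives were chosen with earlier results of these data known. Genes, sequences and motifs were not analysed here, as no genome or annotation of WS220 was used.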

Additional observations from a re-analysis of the deposited data

How the results depend on the processing

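Of 108 alternative values for 11 results under 10 alternatives, 71 stayed within the limits set (1.5 times a count, the 95% interval of a share, or 1 SD between replicates for ratios and differences) and 37 moved; the ratio of median widths stayed above 1 and the difference in −log10 value above 0 in all. The SD between replicates was 0.00536 for the width ratio and 0.0503 for the difference, so small shifts count as moves. With a gap limit of 1000 bp, 150 regions were closely spaced (12.4%), the width ratio was 1.38, and 17.8% of the best-ranked 303 were closely spaced. With 5000 bp these values were 411 (33.9%), 1.19 and 42.6%, and the difference in −log10 value was 0.780; count and share change with the limit by construction. A significance limit 10 times stricter left 149 close regions, fewer peaks having entered, with a ratio of 1.52 and a difference of 1.42. Midpoint distances gave 14.9% of regions, a ratio of 1.29, a difference of 1.14, 18.8% of the best-ranked 303 and 44.8% of regions wider than 1000 bp. Requiring 50% overlap gave 1.38 and 1.84, joining regions within 200 bp first 1.35 and 1.53, and leaving out chromosome IV from 9 to 10 Mb 1.37 and 1.60, for ratio and difference; without peaks under 50 bp the ratio was 1.41. Leaving out a replicate gave 430 to 489 close peaks (22.2 to 22.3%), ratios of 1.24 to 1.41 and differences of 0.587 to 0.795; single lists hold more peaks, so counts rise by construction. For the shifts of ratios and differences the cause was not tested. The share of pairs with the same stronger region (79.1 to 84.5%), of regions in the middle parts (36.0 to 45.3%) and of pairs joined by a series peak (4.60 to 11.9%) did not move beyond their intervals. No paired analysis was possible because only ChIP lists were used, without a second group to pair them with. Genes and motifs, and their alternative of whole regions, were not run. Depth is unknown, so a neighbour may have been missed in either replicate.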
